A study of Rattus norvegicus with 6 samples.

Results

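Potassium channel genes were examined in rat cells that were cultured as precursors of oligodendrocytes, the glia that make myelin. The members were the protein-coding genes of the deposited table whose symbol begins with Kcn followed by a family letter code and a number. This rule found 93 of 37991 genes: 40 voltage-gated subunits, 8 subunits of calcium- or sodium-activated channels, 15 inward rectifiers, 14 two-pore subunits and 16 auxiliary subunits. The families were assigned to these classes by symbol alone.

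The 6 libraries of total RNA came from SD rat cells. The 3 precursor libraries (replicates 1, 2 and 5) hold oligodendrocyte precursors grown in Raff medium before differentiation, and the 3 differentiated libraries (the same numbers) hold cells after a change of growth factors. For replicates 1 and 2, the titles give day 0 for precursors and day 3 for differentiated cells. The labels state neither the age of the rats nor the purity of the cells, nor that replicates were separate cultures, and the p-values therefore cover the spread among these libraries, possibly a technical one.

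Potassium channels are membrane proteins with a pore that passes potassium ions, and in glia they set the resting potential close to the potassium equilibrium. Voltage-gated channels open on depolarisation, inward rectifiers pass current mainly near or below the resting potential, two-pore channels leak at rest, and a further group opens when calcium or sodium rises in the cell. Auxiliary subunits form no pore and change how pore subunits open or reach the membrane. Precursors of this lineage are known for outward currents of voltage-gated channels, and mature oligodendrocytes and astrocytes for the inward rectifier encoded by Kcnj10.

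Total counts ran from 55522101 to 79898629 per library, so that 1 CPM (counts per 1e6 reads, with edgeR's TMM scaling between libraries) stood for 54.9 to 72.0 reads. Oligodendrocyte markers rose, 8 of 8 and among them Mbp, Mag and Mog, from summed levels of 1400 to 2172 CPM in precursors to 18180 to 21480 CPM in differentiated cells. Precursor markers (Pdgfra, Cspg4, Ptprz1, Cspg5, Vcan and Gpr17) were present in both groups, at 886 to 1600 CPM and 959 to 1260 CPM in sum, with 0 of 6 called by edgeR (1 higher at an unadjusted p under 0.05 and by DESeq2). Markers of other cells were present too. Astrocyte markers summed to 4228 to 5928 CPM in precursors and 7537 to 7779 CPM in differentiated cells, with 4 of 8 tested genes higher, though Gjb6 was at or near 0. The astrocyte sum was mostly Gfap, at 3195 to 4812 CPM in precursors and 5702 to 6114 CPM in differentiated cells. Gfap itself was not called (edgeR adjusted p = 0.0849). Microglial markers, 9 of 9 tested and 0 called by edgeR (1 had an unadjusted p under 0.05, and DESeq2 called 0), stood apart in both replicate 1 libraries, at 805 CPM (precursor) and 579 CPM (differentiated) against 301 to 321 CPM in the other 4. Of the 9, 7 were highest in these 2 libraries, and Cx3cr1 and C1qb were not. In sum, markers of pericytes or fibroblasts (80.8 and 60.8 against 20.7 to 33.9 CPM) and of endothelium (39.3 and 28.6 against 12.3 to 18.1 CPM) were also highest in the replicate 1 libraries. Gene by gene this held for 5 of 9 and 2 of 6. The endothelial sum was mostly Flt1, at 36.0 CPM in precursor 1 and 26.5 CPM in differentiated 1, while Kdr was lowest of each group there. Neuronal markers summed to only 34.3 to 65.1 CPM in precursors and 29.1 to 38.9 CPM in differentiated cells, with 2 of 11 lower. Of markers of pericytes or fibroblasts 1 of 7 tested was higher, of Schwann cells 1 of 4, and of endothelium 0 of 5 (0 also at an unadjusted p under 0.05 and by DESeq2). In such bulk RNA, fewer cells of a type and less RNA per cell cannot be told apart.

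Of the 93 members, 71 passed the low-count filter and entered edgeR's quasi-likelihood test of 3 libraries against 3. In differentiated cells 4 rose (Kcne4, Kcnj12, Kcnj10 and Kcnip3) and 2 fell (Kcnh1 and Kcnk10) at an adjusted p under 0.05, Benjamini-Hochberg over 17797 genes. These 6 are 8.45% of the tested members, close to the 8.86% called among all tested genes (5.65% higher and 3.21% lower) and the 9.82% among protein-coding genes. Without regard to expression level, the number of changed genes thus does not set the family apart. The median log2 fold change of the 71 was -0.19, against -0.04 over all tested genes. It was -0.29 without precursor 1 and -0.04 without precursor 5, where all tested genes had -0.02. The groups did not overlap in CPM for 7 members that were higher and 10 that were lower, 9.86% and 14.1% of those tested, against 16.5% and 13.8% of all tested genes. Members were mostly weakly expressed, with a median level of 1.46 CPM against 13.6 CPM over all tested genes. Of 20 members at 5 CPM or more, 5 were called, where 11.7% of all genes at that level were. The sixth call was 1 of 19 members between 1 and 5 CPM, where 5.70% of all genes were called.

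**Figure D1:**
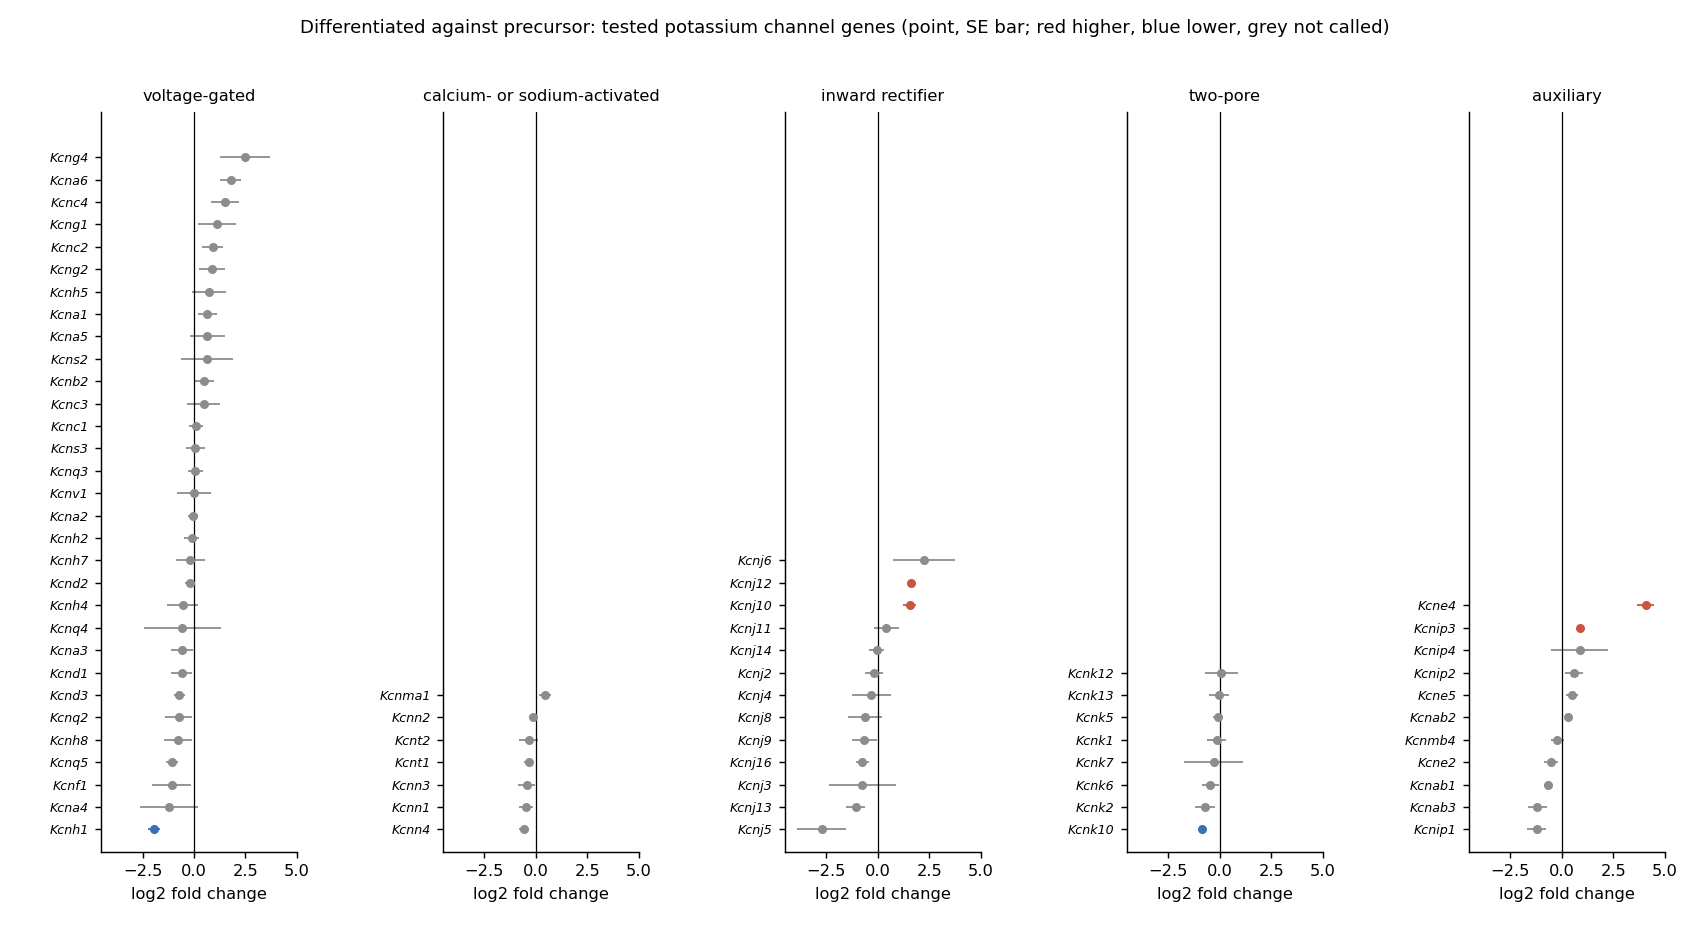
Log2 fold change (horizontal axis) of differentiated against precursor cells for 70 of the 71 tested potassium channel genes, by class, with bars of 1 SE from edgeR's quasi-likelihood fit on 3 libraries per group. Red points passed the test as higher, blue points as lower and grey points did not pass. Kcne4 lies farthest to the right at 4.07, and of the 2 genes that fell, Kcnh1 lies at -1.94 and Kcnk10 at -0.85.

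Adding the replicate number as a block to the same test left the 6 calls in place and raised the counts to 5 higher and 6 lower, 15.5% of the tested members, where 30.6% of all genes were called (14.9% higher and 15.7% lower). Without both replicate 1 libraries, 6 of 70 tested members were higher and 4 lower, 14.3% against 16.6% of all genes (8.48% higher and 8.11% lower), with the 6 calls again among them. The count of lower members was 1 without differentiated 2. In that fit 632 of 18401 tested genes were called in either direction, against 1576 of 17797 in the main fit.

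Inward rectifiers gave 2 of the 4 genes that rose. Kcnj10 (29718), the main inward rectifier of glia, which takes up potassium released by active axons, stood at 7.80, 8.26 and 15.3 CPM in precursors 1, 2 and 5. In differentiated 1, 2 and 5 it stood at 24.9, 26.7 and 40.0 CPM. Every differentiated library lay above every precursor library, and replicate 5 was the highest of each group. The means were 10.5 ± 4.23 and 30.5 ± 8.28 CPM (SD, n = 3). The log2 fold change was 1.54 with SE 0.32 (edgeR adjusted p = 0.0272). This call was lost without precursor 1 (adjusted p = 0.0503), precursor 2 (0.113), differentiated 2 (0.0786) or differentiated 5 (0.103). It was also lost with library size alone as the scaling (0.0587), while the adjusted p was 0.000244 with the replicate block. With any 1 library left out, the log2 fold change of Kcnj10 lay between 1.30 and 1.92. Calls over all genes fell as well, from 1576 to between 632 and 1482. Oligodendrocyte markers (8 of 8 called) and the summed astrocyte markers (4 of 8 tested genes called) were higher in the same libraries. Of the astrocyte markers, Gfap made up most of the sum and was not called, and Slc1a2 had a lower mean. The part of either marker group in the Kcnj10 value was not tested.

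Kcnj12 (117052), an inward rectifier known from heart muscle and brain, had little spread between differentiated libraries. Precursors 1, 2 and 5 held 3.97, 4.22 and 5.35 CPM, and differentiated 1, 2 and 5 held 13.5, 14.2 and 14.3 CPM. The groups were far apart relative to their spread, at means of 4.51 ± 0.735 and 14.0 ± 0.422 CPM (SD, n = 3). Its log2 fold change was 1.63 with SE 0.18 (edgeR adjusted p = 0.0024). The call held in each of the 6 fits that left out 1 library, with an adjusted p of up to 0.0217.

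The other inward rectifiers did not pass. Kcnj16 (29719), which forms mixed channels with the Kcnj10 product, was at 1.44, 2.21 and 2.15 CPM in precursors and 0.989, 1.12 and 1.35 CPM in differentiated cells. Its groups did not overlap and its values lay in the opposite direction to those of Kcnj10, but its log2 fold change, -0.75, did not pass (edgeR adjusted p = 0.22). Kcnj13 (94341), known from choroid plexus and other epithelia, had means of 2.64 ± 0.972 and 1.24 ± 0.584 CPM (SD, n = 3), with overlapping groups. Kcnj5 (29713) and Kcnj6 (25743), subunits of channels opened by G proteins, were close to the detection floor. Kcnj5 had 30, 14 and 12 reads in precursors and 4, 4 and 0 in differentiated cells, and Kcnj6 had 0, 0 and 11 reads against 16, 23 and 9. In CPM the groups of each did not overlap, yet neither passed (edgeR adjusted p = 0.227 and 0.442). For Kcnj6 the gap was narrow, at 0.153 CPM in precursor 5 and 0.164 CPM in differentiated 5, and its reads did overlap. The 7 further inward rectifiers tested (Kcnj2, Kcnj3, Kcnj4, Kcnj8, Kcnj9, Kcnj11 and Kcnj14) lay between log2 fold changes of -0.76 and 0.41. Over the class, 2 of 13 tested genes rose and 0 fell by edgeR (1 fell at an unadjusted p under 0.05, and DESeq2 called 0 lower), and 9 of the 13 fold changes were below 0, with a median of -0.31. That median was -0.78 without precursor 1, -0.11 without differentiated 2 and -0.06 without precursor 5.

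Of the two-pore genes, which encode leak channels, 1 of 8 tested fell and 0 rose by edgeR (0 rose at an unadjusted p under 0.05 or by DESeq2). Kcnk10 (65272), a leak channel opened by stretch and by fatty acids, was the most abundant member by mean TPM (a level per transcript length, by which genes can be compared). It stood at 112, 128 and 131 CPM in precursors 1, 2 and 5 and at 68.7, 72.5 and 65.7 CPM in differentiated 1, 2 and 5. All differentiated libraries lay below all precursor libraries, with little spread within either group. The means were 124 ± 10.2 and 68.9 ± 3.40 CPM (SD, n = 3). The log2 fold change was -0.85 with SE 0.11 (edgeR adjusted p = 0.00425). The call held under each of the 13 alternative settings tried, with an adjusted p of up to 0.0305.

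Kcnk13 (64120), a two-pore channel that is known as a main potassium channel of microglia, instead varied with the replicate. It stood at 15.1 and 14.0 CPM in precursor 1 and differentiated 1, and between 5.28 and 6.74 CPM in the other 4 libraries. The group means of 9.05 ± 5.22 and 8.67 ± 4.66 CPM (SD, n = 3) hid this split, and the log2 fold change was -0.06 (edgeR adjusted p = 0.963). Its sign turned without precursor 1 (0.53), without differentiated 2 (0.09) and without differentiated 5 (0.20). Kcnj2, an inward rectifier also known in microglia, followed the same order, at 9.38 and 7.32 CPM in the replicate 1 libraries and 3.61 to 4.31 CPM in the rest. A search made after these values were seen found 2 members (2.82% of 71) with both replicate 1 libraries at least 1.5 times every other library, against 3.11% of all tested genes. The summed markers of microglia, of pericytes or fibroblasts and of endothelium were highest in the same 2 libraries, and their part in these values was not tested. Kcnk6 (116491) was at 5.66 CPM in precursor 1 and between 1.91 and 3.26 CPM elsewhere. The remaining tested genes Kcnk1, Kcnk2, Kcnk5, Kcnk7 and Kcnk12 did not exceed 2.54 CPM on average, with log2 fold changes from -0.73 to 0.08.

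Among 32 voltage-gated genes tested, 1 fell and 0 rose by edgeR (1 rose at an unadjusted p under 0.05, and DESeq2 called 1 higher and 2 lower). The gene that fell was Kcnh1 (65198), a channel of the ether-a-go-go family that has been linked to cell cycle progression. Precursors 1, 2 and 5 held 3.25, 3.45 and 5.24 CPM and differentiated 1, 2 and 5 held 1.14, 0.992 and 0.983 CPM. The lowest precursor library thus stood well above the highest differentiated library. The means were 3.98 ± 1.09 and 1.04 ± 0.0897 CPM (SD, n = 3). The log2 fold change was -1.94 with SE 0.30 (edgeR adjusted p = 0.00878, and 0.0536 without differentiated 2).

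Kcna6 (64358), a delayed rectifier subunit of the Shaker family known in precursors of this lineage, had the highest fold change among voltage-gated genes above 2 CPM, but did not pass without the block. It stood at 1.35, 3.27 and 3.58 CPM in precursors 1, 2 and 5 and at 4.25, 11.96 and 12.2 CPM in differentiated 1, 2 and 5. Replicate 1 was the lowest library in each group, and the groups did not overlap. The log2 fold change was 1.79 with SE 0.51 (edgeR adjusted p = 0.0791). The adjusted p was 0.000524 with the block, 0.00144 when both replicate 1 libraries were left out and 0.0281 when differentiated 1 was, and it ran up to 0.246 over all alternatives. Kcna3 (29731), Kcna4 (25469) and Kcna5 (25470), other Shaker family subunits described in this lineage, were weak. Kcna3 stood between 1.03 and 1.13 CPM in precursors and between 0.291 and 1.13 CPM in differentiated cells. Kcna4 had 67 reads in precursor 2 and 0 to 13 reads in every other library, so that its group mean rested on 1 library. Kcna5 had 5 to 32 reads per library. None of these 3 passed by edgeR (0 of 3 also at an unadjusted p under 0.05 and by DESeq2).

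Kcnd3 (65195) and Kcnq5 (259273) lay lower in differentiated cells and passed with the block, but not without it. Kcnd3, a subunit of transient A-type channels, was at 6.62, 5.95 and 10.4 CPM in precursors and 3.72, 4.84 and 5.51 CPM in differentiated cells (edgeR adjusted p = 0.187, and 0.0303 with the block, at a log2 fold change of -0.71). Kcnq5, a subunit of the slow M-type current, was at 4.96, 3.41 and 5.03 CPM against 1.57, 2.51 and 2.35 CPM (edgeR adjusted p = 0.073, and 0.0297 with the block, at a log2 fold change of -1.06). Neither gene had overlapping groups, and neither passed when both replicate 1 libraries were left out (adjusted p = 0.191 for Kcnd3 and 0.119 for Kcnq5). Kcnd2 (65180), another A-type subunit and the voltage-gated gene with the highest TPM in each library, held 11.97 to 21.7 CPM in precursors and 13.1 to 16.6 CPM in differentiated cells (edgeR adjusted p = 0.685, log2 fold change -0.20). Kcna1 (24520), an axonal Shaker subunit, likewise did not pass, at a log2 fold change of 0.66. Kcng4 (307900), a silent subunit that modifies others, had 0, 8 and 33 reads in precursors and 125, 34 and 50 reads in differentiated cells (edgeR adjusted p = 0.28). The 21 remaining tested voltage-gated genes split evenly about 0, with 11 fold changes above and 10 below, and an edgeR adjusted p of at least 0.248.

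Of the 7 tested calcium- or sodium-activated genes, edgeR called 0, 1 had an unadjusted p under 0.05 and DESeq2 called 0. That gene was Kcnn4 (65206), the calcium-activated channel of intermediate conductance, known from microglia and other non-excitable cells. It was at 52.9, 36.5 and 32.8 CPM in precursors 1, 2 and 5 and at 34.1, 23.4 and 24.6 CPM in differentiated 1, 2 and 5. The group ranges overlapped, since replicate 1 was the highest library in each group, but each differentiated library was below the precursor library of its number. By edgeR the adjusted p was 0.189 at a log2 fold change of -0.57. It was 0.00421 with the block, 0.0358 once both replicate 1 libraries were left out, and 0.0274 by limma on log2(TPM + 1). It passed in 4 of 13 alternatives, with an adjusted p of up to 0.471, and the log2 fold change was -0.33 without precursor 1. As for Kcnk13, the summed markers of microglia, pericytes or fibroblasts, and endothelium were highest in the replicate 1 libraries, and their part was not tested. Kcnn2 (54262) and Kcnn3 (54263), subunits of small-conductance channels, had log2 fold changes of -0.15 and -0.45 (edgeR adjusted p = 0.744 and 0.596). The other 4, Kcnma1, Kcnn1, Kcnt1 and Kcnt2, lay between -0.49 and 0.44.

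**Figure D2:**
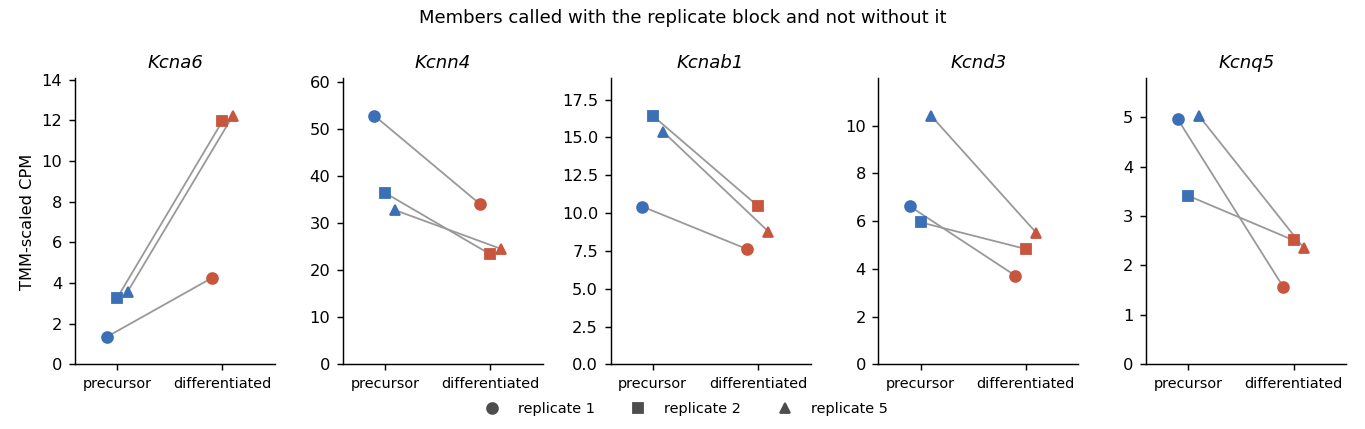
TMM-scaled CPM (vertical axis, from 0) of the 5 members that passed edgeR's test on all 6 libraries with the replicate block and not without it, in precursor (blue) and differentiated (red) libraries, with lines joining libraries of the same replicate number. Kcna6 is higher and Kcnn4, Kcnab1, Kcnd3 and Kcnq5 are lower in the differentiated library of each of the 3 pairs. Selection by the block favours members with the same direction in each pair, and no label states the pairing.

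Auxiliary subunits gave the largest rise. Kcne4 (367302), a small membrane protein that inhibits several voltage-gated channels, stood at 1.35, 0.699 and 0.792 CPM in precursors 1, 2 and 5 and at 9.07, 20.4 and 18.4 CPM in differentiated 1, 2 and 5. Even differentiated 1, the lowest of its group, was several times above precursor 1, the highest of the other. The means were 0.947 ± 0.352 and 15.9 ± 6.04 CPM (SD, n = 3). With a log2 fold change of 4.07 and SE 0.42, Kcne4 passed (edgeR adjusted p = 0.00178). Like Kcnk10, it passed under each of the 13 alternative settings.

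Kcnip3 (65199) encodes a calcium-binding protein that joins A-type channels and is also known as a transcriptional repressor. It held 22.3, 23.1 and 21.8 CPM in precursors 1, 2 and 5 and 45.0, 38.4 and 41.5 CPM in differentiated 1, 2 and 5. The spread within each group was small beside the difference, with means of 22.4 ± 0.695 and 41.6 ± 3.33 CPM (SD, n = 3). Kcnip3 had a log2 fold change of 0.89 with SE 0.12 (edgeR adjusted p = 0.0046). The genes of its A-type partners, Kcnd2 and Kcnd3, had fold changes below 0, as given above.

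Subunits that bind Shaker family channels in the cytoplasm differed among themselves in sign. Kcnab1 (29737) was at 10.4, 16.4 and 15.4 CPM in precursors and 7.61, 10.5 and 8.77 CPM in differentiated cells, and did not pass without the block (edgeR adjusted p = 0.137, and 0.0102 with the block, at a log2 fold change of -0.65). Kcnab2 (29738) had means of 15.3 ± 1.48 and 19.0 ± 2.22 CPM (SD, n = 3) and did not pass (edgeR adjusted p = 0.302, log2 fold change 0.31). Kcnab3 (58981), at 1.95 ± 0.71 and 0.854 ± 0.294 CPM, and Kcnip1 (65023), at 1.11 ± 0.421 and 0.473 ± 0.0873 CPM, did not pass, although the groups of each did not overlap. Kcnmb4 (66016), a subunit of large-conductance calcium-activated channels, was at 9.998 ± 2.76 and 8.60 ± 2.80 CPM (SD, n = 3), with the sign of its fold change turning without differentiated 1. The tested members Kcne2, Kcne5, Kcnip2 and Kcnip4 stayed at or under 2.98 CPM on average. In all, 2 of 11 tested auxiliary genes rose and 0 fell by edgeR (3 fell at an unadjusted p under 0.05, and DESeq2 called 0 lower). Their median log2 fold change was 0.31, -0.04 with the block and -0.39 without differentiated 2.

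**Figure D3:**
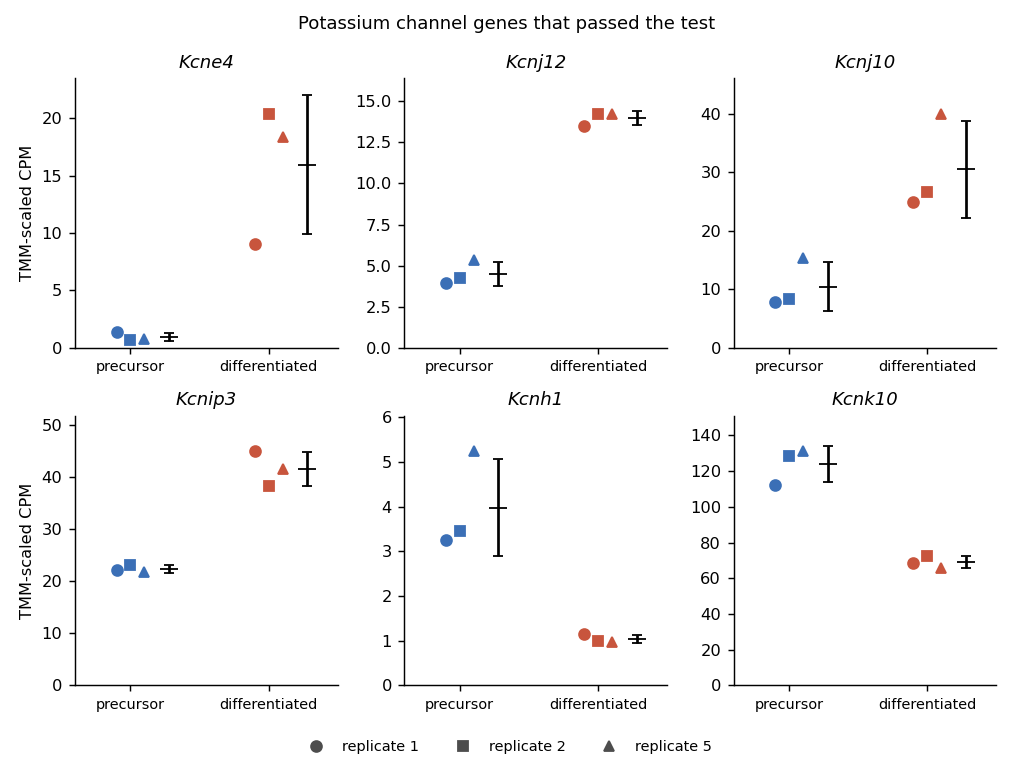
TMM-scaled CPM (vertical axes, each from 0) of the 6 members that passed the test, in each precursor (blue) and differentiated (red) library, with symbols for replicate numbers and black bars for the group mean and 1 SD (n = 3). Kcne4, Kcnj12, Kcnj10 and Kcnip3 are higher and Kcnh1 and Kcnk10 lower in differentiated cells, and no group overlaps the other.

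The sequences just upstream of these genes are shown because these 6 members moved with differentiation, so that a reader can compare what lies before their start sites. RefSeq promoter windows of the assembly GRCr8 were matched by gene identifier to 63 of the 93 members and to 4 of the 6. Printed are the 250 bases before each start, 5′ to 3′ on the strand of the gene: Kcne4 at chr9:87695798-87696047 (plus strand), Kcnip3 at chr3:135195411-135195660 (minus strand), Kcnj10 at chr13:87334260-87334509 (plus strand) and Kcnh1 at chr13:106252966-106253215 (plus strand). Capitals mark matches, on either strand, to an E-box (CANNTG, the class of site read by Olig and Ascl factors), a SOX site (AACAAT), a GC box (GGGCGG) or a MYRF site (CTGGCAC or CTGGTAC). No marked matches overlap one another.
Kcne4: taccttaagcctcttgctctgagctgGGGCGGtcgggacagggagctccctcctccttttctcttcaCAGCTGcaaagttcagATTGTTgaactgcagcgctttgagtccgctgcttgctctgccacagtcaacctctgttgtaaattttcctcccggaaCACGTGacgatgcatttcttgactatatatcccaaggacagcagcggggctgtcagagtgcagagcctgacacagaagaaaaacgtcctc
Kcnip3: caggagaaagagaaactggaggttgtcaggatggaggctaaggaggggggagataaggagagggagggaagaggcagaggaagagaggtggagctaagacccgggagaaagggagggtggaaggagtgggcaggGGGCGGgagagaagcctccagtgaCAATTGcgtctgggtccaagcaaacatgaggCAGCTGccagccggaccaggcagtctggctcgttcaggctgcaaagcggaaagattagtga
Kcnj10: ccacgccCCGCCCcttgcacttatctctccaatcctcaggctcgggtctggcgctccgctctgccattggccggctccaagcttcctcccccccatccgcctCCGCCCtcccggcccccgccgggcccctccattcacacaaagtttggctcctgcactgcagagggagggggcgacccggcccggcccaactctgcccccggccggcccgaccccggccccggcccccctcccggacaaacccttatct
Kcnh1: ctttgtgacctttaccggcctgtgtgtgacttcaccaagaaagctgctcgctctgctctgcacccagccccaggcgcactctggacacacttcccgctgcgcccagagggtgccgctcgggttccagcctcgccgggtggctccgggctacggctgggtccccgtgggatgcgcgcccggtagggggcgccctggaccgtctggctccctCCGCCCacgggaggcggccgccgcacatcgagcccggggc
Kcne4 held 2 E-boxes, 1 SOX site and 1 GC box, Kcnip3 held 2 E-boxes and 1 GC box, Kcnj10 held 2 GC boxes, and Kcnh1 held 1 GC box. Of all 33469 windows of this length, 65.5% held an E-box, 10.3% the SOX letters, 30.5% a GC box, and 3.78% and 1.78% the 2 MYRF forms. The E-box and GC box letters are common and the SOX and MYRF letters less so, and a match describes the sequence only. The windows for Kcnj10 and Kcnh1 were rich in G and C (72.4% and 71.6%), and those for Kcnip3 (58.4%) and Kcne4 (52.4%) less so.

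Levels were compared between genes by the deposited TPM, within libraries only. By mean TPM, 4 members reached 10 TPM, 8 reached 5 TPM and 22 reached 1 TPM, and Kcnk10 (24.0 TPM), Kcnn4 (18.5 TPM), Kcnip3 (15.1 TPM) and Kcnmb4 (10.04 TPM) led. The order changed between the groups. Kcnn4 ranked 1, 2 and 2 and Kcnk10 ranked 2, 1 and 1 in precursors 1, 2 and 5. Kcnip3 ranked 3, 4 and 4 in precursors 1, 2 and 5 and 1, 2 and 1 in differentiated 1, 2 and 5, and Kcnj10 ranked 8, 9 and 5 against 4, 4 and 2. Kcne4 ranked 33, 52 and 48 among members in precursors and 12, 6 and 8 in differentiated cells. Neighbours such as Kcnmb4 and Kcnj10, at 10.04 and 9.93 TPM on average, lay well within each other's spread between libraries.

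**Figure D4:**
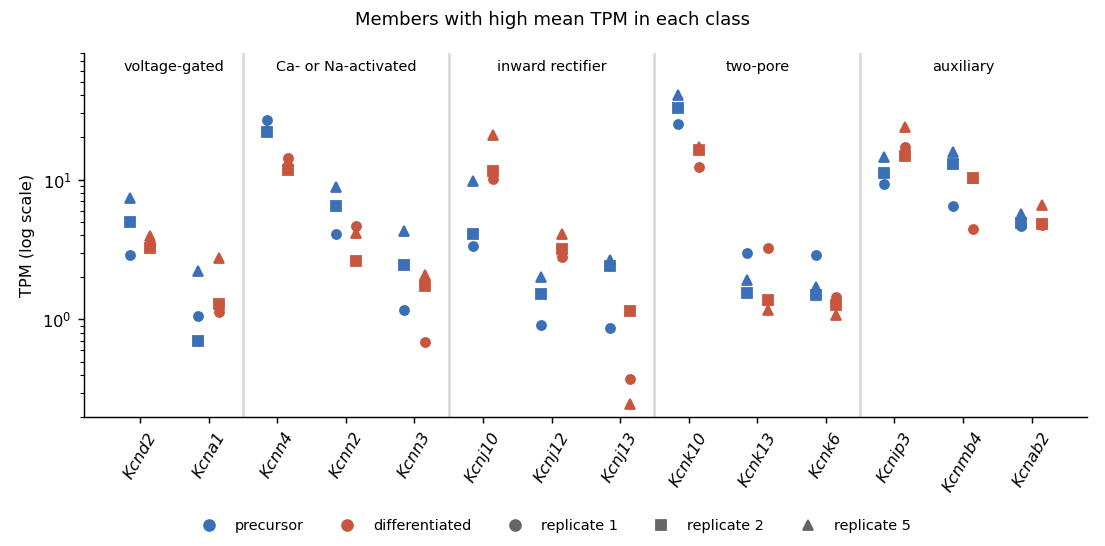
Deposited TPM (log scale) of members with high mean TPM in each class (from the 3 highest of each), in precursor (blue) and differentiated (red) libraries, with symbols for replicate numbers. Kcnk10 and Kcnn4 lie highest in precursors, and Kcnip3 and Kcnj10 reach 23.6 and 20.7 TPM in differentiated 5.

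Kcnd2, Kcnn4, Kcnj10 and Kcnk10 each had the highest TPM of their class in all 6 libraries. Among auxiliary genes Kcnmb4 led in precursors 2 and 5 and Kcnip3 in the other 4 libraries. The shares of the classes differed between the groups. Inward rectifiers held 6.73%, 8.81% and 10.4% of the members' summed TPM in precursors 1, 2 and 5 and 15.1%, 15.3% and 18.7% in differentiated 1, 2 and 5. Kcnj10 alone made up 31.6% to 49.3% of the inward rectifier TPM in precursors and 60.9% to 73.0% in differentiated cells. Auxiliary subunits held 25.4% to 28.3% in precursors and 34.2% to 38.6% in differentiated cells. Two-pore genes took 24.4% to 27.8% in precursors and 13.9% to 18.0% in differentiated cells, with Kcnk10 making up 66.1% to 86.5% of their TPM in any library. Calcium- or sodium-activated genes took 22.1% to 29.4% and then 15.6% to 21.3%. For these 4 classes the groups did not overlap, while voltage-gated genes overlapped at 10.7% to 15.2% and 11.5% to 13.9%. Shares sum to a fixed total, so 1 class cannot gain without another losing, and no test was made of them.

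**Figure D5:**
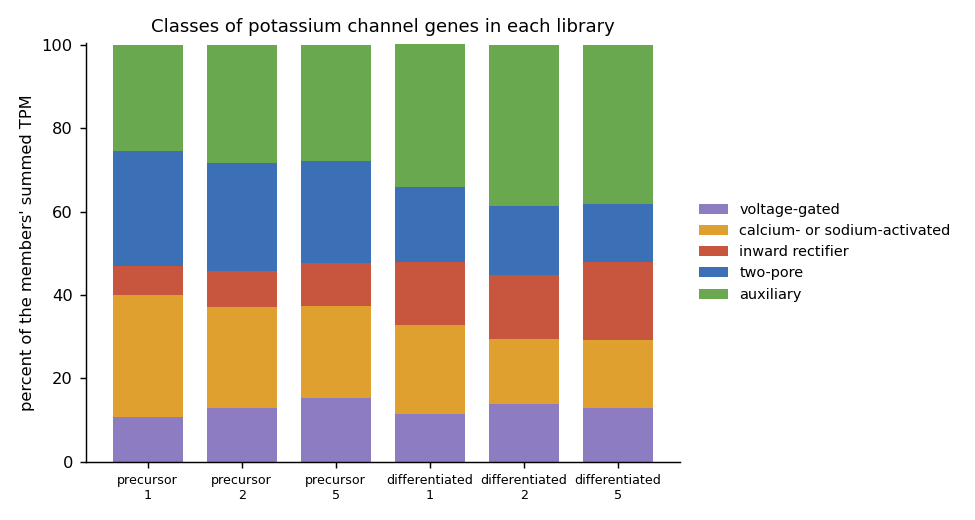
Percent of the summed TPM of all members (vertical axis) held by each class in each of the 6 libraries, stacked to 100%. The inward rectifier share (red) is 6.73% to 10.4% in precursors and 15.1% to 18.7% in differentiated cells, and the two-pore share (blue) is 24.4% to 27.8% and 13.9% to 18.0%.

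The same search in the other direction found 5 members at least 1.5 times below every other library in both replicate 1 libraries. Kcnh2, Kcnh4, Kcnh5, Kcnj3 and Kcnj8 are 7.04% of the tested members, against 1.67% of all tested genes. These shares are not matched for level, since the tested members had a median of 1.46 CPM against 13.6 CPM. Counts per library were low, at 18 to 131 reads for Kcnh4, 12 to 69 for Kcnh5, 0 to 31 for Kcnj3 and 9 to 74 for Kcnj8. Kcnh2, a channel known for the repolarising current of the heart and the best expressed of the 5, was at 2.09 and 1.76 CPM in precursor 1 and differentiated 1 and between 3.35 and 3.95 CPM in the other 4 libraries. Within each group, the summed neuronal markers were also lowest in replicate 1, at 34.3 CPM (precursor 1) and 29.1 CPM (differentiated 1), as were the summed precursor markers, at 886 and 959 CPM. This did not hold gene by gene, since Pdgfra, Gad1 and Nefm were highest of their group in differentiated 1. The part of these markers was not tested.

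The 22 members that did not pass the filter had at most 46 reads in any library, and 7 of them (Kcna10, Kcne1, Kcne3, Kcnk16, Kcnk18, Kcnmb3 and Kcnu1) had 0 reads in all 6. A count of 0 allows a level of up to 0.0417 to 0.0546 CPM (3 counts, counting error only). The 46 reads belonged to Kcnh6, named after its value was seen, which had 46 and 25 reads in differentiated 2 and 5 and 0 in the other 4 libraries. The others were Kcna7, Kcng3, Kcnh3, Kcnj1, Kcnj15, Kcnk3, Kcnk4, Kcnk9, Kcnk15, Kcnmb1, Kcnmb2, Kcnq1, Kcns1 and Kcnv2.

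Other genes of potassium handling were a list of 44 partners of these channels, pumps and cotransporters, of which more rose than fell. The list was chosen with earlier results of these data known, so its counts are no test of these genes as a set. Of 37 tested, 8 rose and 0 fell by edgeR (2 fell at an unadjusted p under 0.05, and DESeq2 called 1 lower). Of all tested genes 5.65% rose and 3.21% fell, shares that were not matched for level. The median log2 fold change of the list was 0.16. With the block 12 rose and 5 fell, where 14.9% of all genes rose and 15.7% fell. When precursor 2 was left out 5 of the list rose, and 503 of all 18342 tested genes did. Slc12a2, the sodium, potassium and chloride cotransporter, rose from 103 ± 14.1 to 401 ± 19.8 CPM (SD, n = 3, edgeR adjusted p = 0.000333, log2 fold change 1.96). Lgi3, a secreted partner of the Shaker channel complex, rose from 11.6 to 114 CPM, and Hcn2, a channel opened by hyperpolarisation, from 3.40 ± 0.704 to 22.5 ± 16.4 CPM (SD, n = 3). Hcn2 was at 41.5, 12.6 and 13.5 CPM in differentiated 1, 2 and 5, so its mean rested on differentiated 1. Its log2 fold change was 2.73, and 1.95 without that library, and the call was lost without precursor 2 (edgeR adjusted p = 0.0849) or precursor 5 (0.0618). Dpp10, an A-type channel partner like Kcnip3, rose from 10.8 to 21.4 CPM, a call lost without precursor 2 (edgeR adjusted p = 0.088), differentiated 2 (0.0935) or differentiated 5 (0.0816). With any 1 library left out, the log2 fold change of Dpp10 lay between 0.90 and 1.18. The cotransporter Slc12a4 and the scaffold Dlg1 rose too, at log2 fold changes of 0.77 and 1.10.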

How the data were processed

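The data are 3 precursor and 3 differentiated RNA libraries. Per the labels' protocols, ISOGEN served for extraction and a stranded kit for total RNA libraries. The submitters' processing notes list StringTie 2.1.3b, HISAT2 2.1.0, Trimmomatic 0.38 and bcl2fastq 2.20.0 as tools. The notes name the build GRCh38, a human assembly, while the deposited table has rat gene identifiers. Since no source used here names a rat build or how strand was used in counting, reads of overlapping and antisense genes cannot be told apart. The authors deposited read counts that are not normalized, FPKM values, which were not used, and TPM values. A single small RNA, Rn7sl1, held 24.0% to 38.7% of each library's TPM, so TPM served only for comparing genes within libraries and as an alternative between groups.

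Counts were tested with edgeR 4.0.16 (quasi-likelihood, robust, TMM, its low-count filter) in R 4.3.3 over all genes, with adjusted p under 0.05 as a call and SE as the fold change divided by the square root of F. The code of the main fit was run on simulated counts with the same dispersion for every gene and no replicate effect. That run checks the code, not how well the fit suits these data. Alternatives were library size alone, DESeq2 1.42.0, no filter, each library or both replicate 1 libraries left out, the replicate block, and limma 3.58.1 on log2(TPM + 1) and log2(TPM + 0.1). Deviations of same-numbered libraries from their group means correlated at 0.421, 0.197 and 0.272 across genes for replicates 1, 2 and 5, above any correlation between different numbers (up to 0.105). The numbers were therefore treated as pairs, though no label says so. Members with values in the text are those called, the 3 with the highest TPM of each class, 6 known in this lineage, up to 6 called only with the block, and those not called with groups that do not overlap and at least 2-fold apart. The members and lists were chosen with earlier results of these data known. No column belonged to another series. Some genes that the rule names are not reported here.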

Additional observations from a re-analysis of the deposited data

How the results depend on the processing

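The number of members higher in differentiated cells was 4, between 3 and 5 with any 1 library left out, and 1 by limma on log2(TPM + 1) and on log2(TPM + 0.1). The number lower was 2, between 1 and 2 with 1 library left out, 4 without both replicate 1 libraries and 6 with the replicate block, which changed no call of the 6 members. Calls over all genes changed too. Of 17797 tested genes, 1576 were called in the main fit and 1005 of these were higher. With 1 library left out, between 632 and 1482 genes were called, and between 484 and 947 were higher. By limma at pseudocounts of 1 and 0.1, 487 and 509 genes were higher. Among other potassium handling genes, 8 rose, between 5 and 10 with 1 library left out and 5 by limma at either pseudocount, and 0 fell, between 0 and 1 with 1 library left out, 1 by DESeq2, 2 without both replicate 1 libraries and 5 with the replicate block. Of the 6 members called, Kcne4 and Kcnk10 passed under all 13 alternatives, Kcnh1 under 12, Kcnip3 and Kcnj12 under 11 each, failing by limma on the TPM scale (adjusted p of up to 0.134 and 0.0649), and Kcnj10 under 6. On that scale the median log2 fold change of all tested genes was -0.17 and -0.26, and with library size alone -0.19. Some members that did not pass changed sign: with 1 library left out, log2 fold changes ran from -1.78 to 0.91 for Kcna4 (highest without precursor 2), -0.58 to 0.53 for Kcnk13 (above 0 without precursor 1, differentiated 2 or differentiated 5), -0.39 to 0.01 for Kcnd2 (precursor 5), -0.42 to 0.038 for Kcnmb4 (differentiated 1) and -0.69 to 0.073 for Kcnk6 (precursor 1). Kcnk13 was at 0.001 without both replicate 1 libraries. The causes were not tested. The median log2 fold change of all members was -0.34 with library size alone and below 0 in each setting, and that of two-pore genes was 0.01 without precursor 1. Depth limits members under 1 CPM, which rest on fewer than 54.9 to 72.0 reads per library.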

Other observations

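Without both replicate 1 libraries, Kcnh6, a voltage-gated channel gene related to Kcnh1, also passed edgeR's test (adjusted p = 0.0273), on 0 reads in precursors 2 and 5 against 46 and 25 reads in differentiated 2 and 5, so no fold is given. The genes of the sulfonylurea receptors, which complete ATP-sensitive channels with Kcnj8 or Kcnj11, were weak and uneven. Abcc9 had reads in precursor 5 alone, at 0.764 CPM. Abcc8 stood at 0.0784, 0.601 and 0.458 CPM in precursors and at 0, 0.403 and 1.53 CPM in differentiated cells, with overlapping groups.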
